A study of Mus musculus with 10 samples.

Results

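Of 76504 autosomal ATAC-seq peaks that passed a −log10 q of 5 in Smchd1 fl/fl neural stem cells of both sexes, 4389 (5.74%, 95% exact binomial interval 5.57 to 5.90) had no peak at the same place in Smchd1 del/del cells of either sex. These 4389 regions, called members here, were chosen by measured values. Each was a peak of the control female list on chromosomes 1 to 19 with a −log10 q of 5 or more, overlapped a control male peak of 5 or more by at least 1 bp, and overlapped no peak of the deleted female or deleted male list, whatever its strength. The 76504 peaks that met the control part of that rule are called candidates. Another 63956 of them overlapped a peak in both deleted lists and are called kept, and 8159 were absent from 1 deleted list only. The 4 lists hold 425276 peaks in all. Presence and strength in the 4 lists made the choice, so they are described here and support nothing, and with 1 list per group no p-value was computed. Intervals cover counting error only.

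ATAC-seq uses the Tn5 transposase, which inserts sequencing adapters into open DNA. The C57BL/6 cells were lines of neural stem cells derived from Smchd1 fl/fl embryos at E14.5. Per the labels' protocols, established lines received the MSCV-Cre-puro retrovirus, which carries the Cre recombinase and puromycin resistance, were selected with puromycin from 24 h, and were harvested at 7 days. The groups were fl/fl F (3 libraries, female control), del/del F (3, female deleted), fl/fl M (2, male control) and del/del M (2, male deleted), so a floxed Smchd1 is what all lines started from. All 10 samples carry 1 protocol text, and the sources used here do not say if the fl/fl cells got a virus or if the lines came from separate embryos. The description field of the male samples reads female, whereas their title, sex field and file read male.

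Smchd1 is a non-canonical member of the SMC family of chromatin proteins, which shape chromosomes. It is known for keeping genes silent on the inactive X chromosome and at autosomal clusters such as imprinted and protocadherin genes, and for its effect on long-range chromatin contacts. Open chromatin in a neural stem cell marks promoters, which drive transcription at a gene's start, and distal elements such as enhancers and insulator sites. ATAC-seq peaks do not tell these distal kinds apart.

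Only 31 members overlapped the 300-base promoter window of a protein-coding gene, as RefSeq gives it for each annotated start. They met 32 such windows. The start lay within 1 kb of an end of the gene in 16 windows and farther inside the gene, at an internal start, in the other 16. The 250 bases before the start are shown for the 5 windows that begin at the outer end of the gene and have at least 50 of those bases in the member. They are shown because there a member met the sequence before the outermost start of a gene. Sequences are from RefSeq (GRCm38.p6, which has the sequence of mm10) and run 5′ to 3′ along the gene up to the base before its start. Capitals mark the bases that lie in the control female peak. Nat8 encodes an N-acetyltransferase (chr6:85836858-85837107, minus strand). Nkx3-2 is a homeobox gene of the developing skeleton (chr5:41764221-41764470, minus strand). Strn4 encodes a scaffold protein of the striatin family (chr7:16815639-16815888, plus strand). Dusp27 belongs to the dual-specificity phosphatase family (chr1:166127899-166128148, minus strand). Cdkn1a encodes a cell cycle inhibitor (chr17:29090729-29090978, plus strand).
Nat8: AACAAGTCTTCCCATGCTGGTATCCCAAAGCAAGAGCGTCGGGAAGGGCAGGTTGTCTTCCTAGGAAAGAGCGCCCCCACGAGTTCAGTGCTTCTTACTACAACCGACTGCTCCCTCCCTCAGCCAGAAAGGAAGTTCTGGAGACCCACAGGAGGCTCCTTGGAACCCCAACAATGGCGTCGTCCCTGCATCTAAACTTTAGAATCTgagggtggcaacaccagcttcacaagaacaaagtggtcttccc
Nkx3-2: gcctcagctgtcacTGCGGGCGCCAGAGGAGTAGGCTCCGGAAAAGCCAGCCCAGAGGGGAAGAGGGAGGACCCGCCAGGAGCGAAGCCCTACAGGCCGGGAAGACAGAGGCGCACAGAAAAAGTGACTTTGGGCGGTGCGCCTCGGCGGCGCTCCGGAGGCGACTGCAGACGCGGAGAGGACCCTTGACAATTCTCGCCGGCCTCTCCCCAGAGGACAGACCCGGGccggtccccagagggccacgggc
Strn4: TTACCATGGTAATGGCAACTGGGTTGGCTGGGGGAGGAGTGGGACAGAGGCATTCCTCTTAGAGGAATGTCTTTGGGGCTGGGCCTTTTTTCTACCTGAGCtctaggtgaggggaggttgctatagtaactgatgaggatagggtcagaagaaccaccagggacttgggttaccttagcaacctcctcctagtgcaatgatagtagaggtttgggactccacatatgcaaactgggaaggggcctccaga
Dusp27: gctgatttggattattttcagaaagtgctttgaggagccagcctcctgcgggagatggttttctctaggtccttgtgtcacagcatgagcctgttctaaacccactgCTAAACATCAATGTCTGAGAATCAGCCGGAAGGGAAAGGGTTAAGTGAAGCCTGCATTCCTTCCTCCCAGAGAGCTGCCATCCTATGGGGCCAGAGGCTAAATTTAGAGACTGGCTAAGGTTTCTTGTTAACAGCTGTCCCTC
Cdkn1a: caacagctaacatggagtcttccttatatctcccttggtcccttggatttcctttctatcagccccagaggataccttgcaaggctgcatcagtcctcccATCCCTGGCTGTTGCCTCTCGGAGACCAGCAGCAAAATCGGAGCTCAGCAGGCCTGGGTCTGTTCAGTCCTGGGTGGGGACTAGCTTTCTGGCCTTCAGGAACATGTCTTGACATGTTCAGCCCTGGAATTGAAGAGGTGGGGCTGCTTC
All 5 summits lay before the start, at 159 bp for Nat8, 154 bp for Nkx3-2, 507 bp for Strn4, 10 bp for Dusp27 and 27 bp for Cdkn1a. The Nkx3-2 window is rich in G and C (66.7%, with 8.33 CpG per 100 bases), whereas the Cdkn1a and Strn4 windows hold 0.667 and 0.333 CpG per 100 bases. The SP/KLF motif GGGCGG was found in the Nkx3-2 sequence, on either strand, and not in the other 4.

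The lists rested on 144613215 filtered tags in fl/fl F, 139318421 in del/del F, 91734730 in fl/fl M and 74674218 in del/del M, with tag sizes of 53, 63, 62 and 59 bp in that order. They held 126111, 100826, 98744 and 86015 autosomal peaks, so each deleted list was shorter than the control list of its sex. Depth therefore moved with the deletion in both sexes, and its part in the absence of members was not tested. Tag size was longer in the deleted list of the females and shorter in that of the males. Of 17 autosomal neural stem cell markers, 15 had a peak within 1 kb of a gene end in both control lists, among them Nes, Sox2 and Fabp7. So did 12 of 15 neuron, 6 of 9 astrocyte, 7 of 11 oligodendrocyte, 6 of 9 fibroblast, 4 of 12 microglia and blood and 2 of 9 endothelial markers, so end peaks set these cell types apart only in part. The Smchd1 gene (chr17:71344489-71475366) held only 1 candidate and 0 members, where 5.74% of all candidates were members. Its end had a peak in all 4 lists, with −log10 q from 93.1 to 106, which checks no label because the sources used here do not name the deleted exons.

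Members were mostly weak peaks in the controls. Strength here is the authors' −log10 q, where a larger value means a clearer peak. Among candidates between 5 and 7 in fl/fl F, 1277 of 4251 were members (30.04%, 28.7 to 31.4). The share was 20.1% (19.3 to 20.9) from 7 to 10, 7.97% (7.52 to 8.44) from 10 to 15 and 1.72% (1.48 to 1.99) from 15 to 20. From 20 to 30 it was 0.120% (15 of 12463, 0.0674 to 0.198), and 0 of the 26830 candidates at 30 or over were members, which allows a share of up to 0.0112%. In all, 3131 members (71.3%) were under 10, where 17.6% of candidates lie, and 27 members reached 15 in both control lists.

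Each deleted list alone lacked more candidates than both lacked together. The del/del F list lacked 7011 candidates (9.16%) and the del/del M list, the shallowest, lacked 9926 (13.0%). In the weakest band the shares were 40.6% (39.1 to 42.1) and 54.3% (52.8 to 55.9), and in the band from 20 to 30 they were 0.546% and 1.15%. The plot of absence by strength shows the same fall in both deleted lists.

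**Figure D1:**
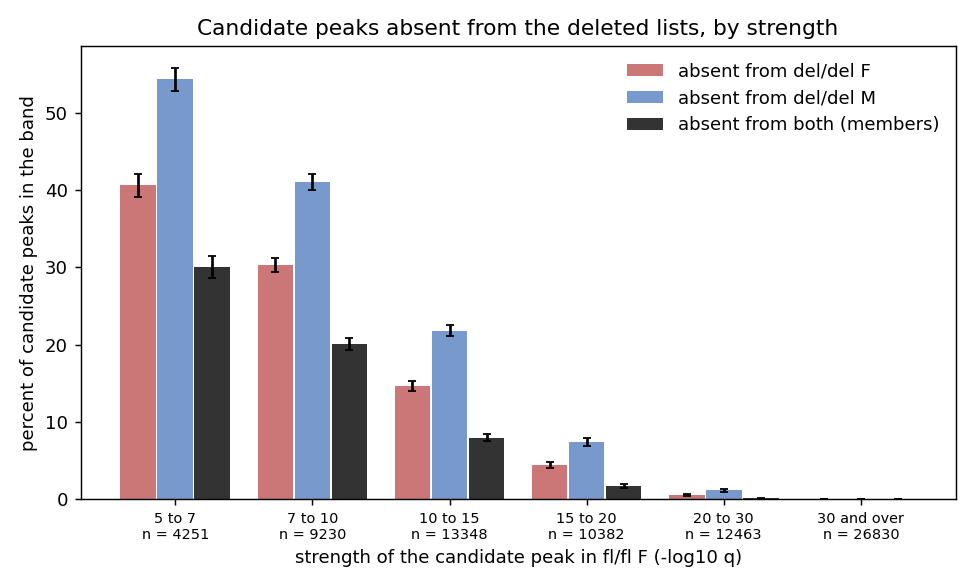
Percent of candidate peaks (y axis) absent from the del/del F list, the del/del M list or both, in 6 bands of −log10 q in fl/fl F (x axis), with exact 95% intervals as bars and the number of candidates under each band. Absence from both lists falls from 30.04% in the weakest band to 0 of 26830 in the strongest.

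Peak heights describe the same regions in another way. Members had a median fold enrichment over local background of 3.10 in fl/fl F (range 1.74 to 5.24) and 3.47 in fl/fl M (1.93 to 11.5). Their median pileup, the height of stacked tags, was 41 in fl/fl F and 30 in fl/fl M. Kept candidates had medians of 4.76 and 5.38 for fold enrichment. Weighted to the members' mix of fl/fl F strength bands, kept candidates had a fold enrichment of 3.09 and 3.57 in the controls, and of 2.96 in del/del F and 3.43 in del/del M. Their −log10 q medians in the deleted lists were 7.39 and 6.64, and their pileup medians were 43 and 41 in fl/fl F and del/del F and 33 and 27 in fl/fl M and del/del M. A kept candidate has a deleted peak by definition, so these are values of peaks that passed the caller. Among all kept candidates 980 (1.53%) had a deleted peak under 5 in both deleted lists. That set is mostly stronger than the members, with a median −log10 q of 25.1 against 8.12 in fl/fl F. Kept candidates between 5 and 7 in fl/fl F had deleted medians of 6.37 in del/del F and 5.44 in del/del M.

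Members were also short. Their median length was 201 bp in fl/fl F and 190 bp in fl/fl M, against 300 and 258 bp for kept candidates in the members' mix of strength. A longer peak has more bases that can meet a deleted peak, so length is tied to the rule. The summits of the 2 control peaks lay a median 17 bp apart in members, 81.7% of them within 50 bp, and 28 bp apart (67.2% within 50 bp) in kept candidates of that mix. All kept candidates, which are stronger, were at 15 bp and 80.8%. Across peaks, log2 fold enrichment in fl/fl F and fl/fl M had a Pearson r of 0.39 over 4389 members and 0.93 over 63956 kept candidates. These points come from the same 2 lists, and the narrow range of strength that the rule leaves in members bears on the first value.

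**Figure D2:**
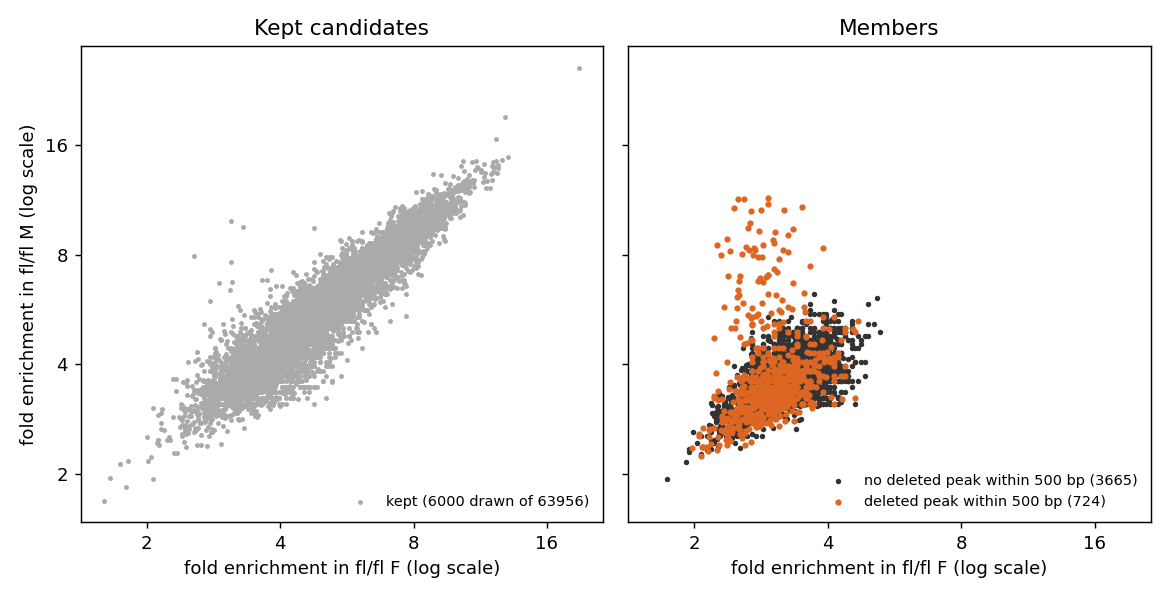
Fold enrichment over local background in fl/fl F (x axis) and fl/fl M (y axis), both on log scales, for 6000 of the 63956 kept candidates drawn at random (left) and all members (right), each point 1 peak. Members lie at low fold in both controls, apart from a group beside a deleted peak that is low in fl/fl F and reaches 11.5 in fl/fl M.

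The distance from a member to the nearest deleted peak varied widely. For 724 members (16.5%) a peak of at least 1 deleted list lay within 500 bp, although it did not touch the member. For 1346 (30.7%) the nearest peak of either deleted list was over 10 kb away, and 2319 (52.8%) lay between these limits. The median distance was 5.52 kb to del/del F and 6.48 kb to del/del M. Of the 724, 126 (17.4%) overlapped an fl/fl M peak at least 2 times as long as the fl/fl F peak, against 42 of the other 3665 (1.15%). Their control summits were over 150 bp apart in 144 cases (19.9%), against 85 (2.32%) of the others. The log2 fold values of the 2 controls had a Pearson r of 0.18 in the 724 and 0.53 in the 3665.

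Most of the members that ranked highest had a deleted peak close by. The 15 members of best mean rank include short fl/fl F peaks in or near Fer, Gm39469, Rbms3, Cfap97, Ncam2, Adipor1, Micall2, Spata16, Tmtc1, Casp12 and Gm33906. At these 11 places the fl/fl F peaks were 159 to 227 bp long and the fl/fl M peaks 584 to 1265 bp, and both deleted lists had a peak within 131 bp of the fl/fl F peak. The fl/fl F peak in Ncam2, a neural cell adhesion gene (chr16:81285618-81285800), was 183 bp long with a −log10 q of 13.3. It met an fl/fl M peak of 881 bp with a −log10 q of 39.6, while the nearest del/del F and del/del M peaks were 80 and 67 bp away. In Cfap97 (chr8:46163068-46163234) the fl/fl F peak of 167 bp, at 9.55, met an fl/fl M peak of 1008 bp at 70.9, with deleted peaks 77 and 72 bp away. At all 11 places the fl/fl M peak also overlapped another fl/fl F peak and a peak of both deleted lists, so both deleted lists had a peak at the larger site. Over all members, 120 (2.73%) were such side peaks, all of them among the 724.

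The 12 highest ranked members with no deleted peak within 10 kb, chosen after their values were seen, had a −log10 q of 13.9 to 24.9 in fl/fl F and 13.2 to 22.5 in fl/fl M. The peak in Adgrb3, an adhesion receptor of synapses (chr1:25419441-25419690), had a −log10 q of 22.0 and a fold of 4.92 in fl/fl F and 20.9 and 5.86 in fl/fl M, with the nearest deleted peaks 54.8 and 54.9 kb away. The peak in the predicted gene Gm4724 (chr2:175663123-175663324) reached 24.1 and 22.5, 21.7 and 21.6 kb from a deleted peak. The peak in Rab3c, a small GTPase of synaptic vesicles (chr13:110260723-110260985), had the highest fl/fl F value of all members, 24.9, and 14.7 in fl/fl M. These 3 lie inside genes, at 31.5, 40.9 and 20.1 kb from the nearest gene end.

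Others of the 12 lie near or in genes of neural and general function. The peak in Crb1, a polarity gene of neural epithelia (chr1:139291626-139291904), stood at 18.5 and 16.9 in fl/fl F and fl/fl M, 22.5 kb from a peak of either deleted list. The peak in Anks1b, a scaffold gene of synapses (chr10:90615292-90615517), stood at 18.5 and 16.2. Those in Rc3h2, an RNA-binding ubiquitin ligase gene, Relch, Dock10, a guanine nucleotide exchange factor, and Cfap54, a cilia gene, ranged from 15.8 to 20.6 in fl/fl F and from 13.2 to 18.5 in fl/fl M. Between genes, a peak 24.3 kb from Golim4 stood at 15.2 and 21.7. A peak on chromosome 2 (chr2:116216518-116216729) stood at 23.4 and 16.2, with Meis2, a homeobox gene, as the nearest coding gene at 149 kb. The peak assigned to Gm5620 was the only one of the 12 whose 2 deleted distances differed widely, at 10.7 kb to del/del F and 69.5 kb to del/del M.

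Members lay away from gene ends. Only 414 (9.43%, 8.58 to 10.3) were within 1 kb of either end of a gene, 2241 (51.1%, 49.6 to 52.6) were inside genes and 1734 (39.5%, 38.1 to 41.0) outside. Kept candidates in the members' mix of strength had 14.7% at gene ends, 49.7% inside and 35.6% outside, and all kept candidates 26.3%, 44.4% and 29.4%. With length bands added to the strength bands, kept candidates had 12.7% at gene ends. The gap was present in each band of strength with over 100 members, where 8.36% to 10.3% of members and 14.51% to 15.9% of kept candidates were at a gene end. In the band from 15 to 20, with 18 of 179 members, the interval reached 15.4%.

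Summits of members lay a median 13.9 kb (13.0 to 15.1) from the nearest end of any gene. Kept candidates of the same mix of strength were at 9.55 kb, and at 10.4 kb with length added. Coding gene ends are only a part of all gene ends, so distances to them cannot be smaller. The median distance from a member summit to the nearest coding gene end was 36.0 kb (33.9 to 38.6), against 24.0 kb in kept candidates of the same mix of strength, 26.3 kb with length added and 16.96 kb in all kept candidates. In all, 1234 members (28.1%, 26.8 to 29.5) were over 100 kb from a coding gene end, against 21.6% of kept candidates in the mix of strength and 23.4% with length added. The 2508 members with their summit in a gene, those near its ends included, sat in long genes. Their median gene length was 108 kb (100 to 118) against 73.9 kb, and 86.9 kb with length added. In total 611 members (13.9%, 12.9 to 14.98) had their summit in a gene over 300 kb, against 10.9%, and 12.2% with length added. Of the 724 members with a deleted peak within 500 bp, 129 (17.8%) were at gene ends, against 285 of the other 3665 (7.78%, 6.93 to 8.69). Kept candidates all overlap a deleted peak and cannot be filtered in this way, so the 7.78% has no matching value among them.

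**Figure D3:**
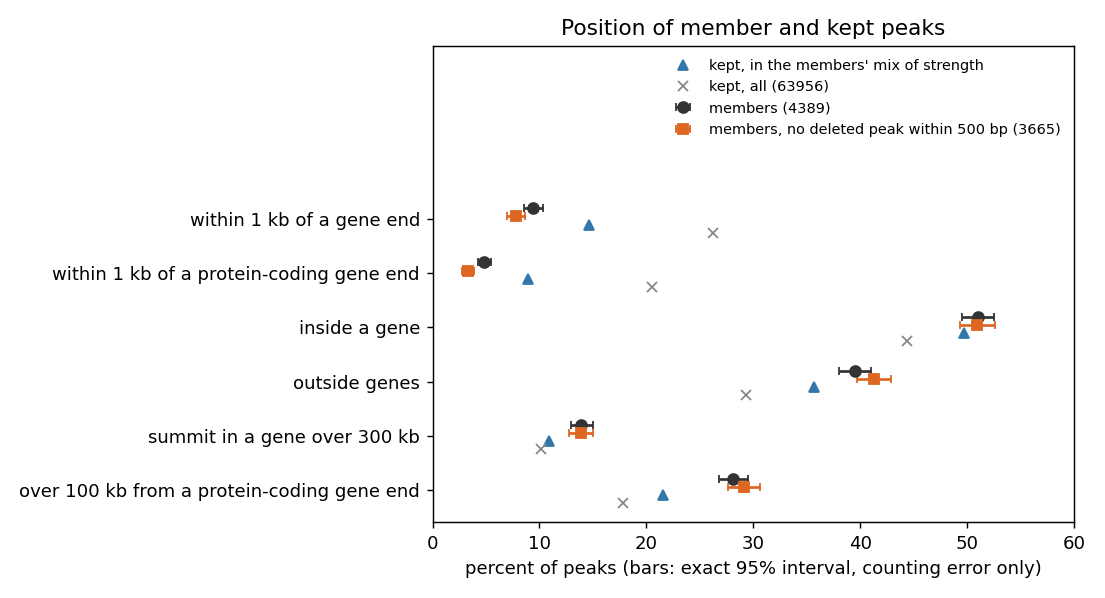
Percent of peaks (x axis) in 6 overlapping classes of position (y axis) for all members, members with no deleted peak within 500 bp, kept candidates weighted to the members' mix of fl/fl F strength, and all kept candidates, with exact 95% intervals on the member values. Members are at 9.43% for gene ends against 14.7% in kept candidates of like strength, and at 28.1% against 21.6% for places over 100 kb from a coding gene end. The kept values are not weighted for peak length. Members with no deleted peak within 500 bp are drawn beside kept candidates but have no match among them, since every kept candidate overlaps a deleted peak.

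At promoters the members were few. The 31 members that overlapped a promoter window are 0.706% of members (0.480 to 1.00), against 3.62% of kept candidates in the members' mix of strength, 1.88% with length added and 15.8% of all kept candidates. The 32 windows they met belong to 30 genes. Those windows had a median G and C content of 51.5% and 2.0 CpG per 100 bases, against 59.7% and 4.67 in windows met by kept candidates of that mix and 57.0% and 4.67 over all 20084 windows. In all, 11 motifs were counted. Of the 32 windows, 9 held GGGCGG on either strand (28.1%, 13.7 to 46.7), against 55.0% in the kept mix and 47.0% of all windows. The TEAD motif GGAATG was in 11 (34.4%, 18.6 to 53.2), against 13.1% and 13.4%. The NFI motif TTGGCA was in 6 (18.8%, 7.21 to 36.4), against 13.3% and 13.1%. The E-box CAGCTG was in 10 (31.2%, 16.1 to 50.01; 16.2% in the kept mix), the SOX motif ACAAAG in 8 (25%; 13.5%) and the part AGGNGGC of the CTCF site in 9 (28.1%; 43.2%). AP-1 (TGANTCA) and the RFX motif GTTGCCA were in 4 each (12.5%; 4.67% and 4.16%), the homeobox motif TAATTA and the forkhead motif TGTTTAC in 3 each (9.38%; 4.45% and 1.19%), and the CRE TGACGTCA in 0 (1.04%). With 32 windows the intervals are wide, and 11 motifs were looked at. The intervals treat the windows as independent, although 32 windows came from 31 members and 30 genes. Overlapping windows of Catspere2, met by the same member, both held the homeobox motif. Matches on either strand were counted once per window, could overlap those of another motif, and describe letters only.

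The genes whose start met a member included regulators and tissue genes. The peak of best mean rank met an internal start of Hdc, the gene of the enzyme that makes histamine, 5.35 kb from the nearest end of the gene, with a fold of 4.13 in fl/fl F and 5.03 in fl/fl M and a −log10 q of 15.2 and 15.4. At Tle2, a Groucho-type co-repressor gene, the start lay 548 bp within the gene. The Tle2 peak was taller in pileup (93 and 62) but had a fold of 2.84 and 3.14, the fold being the pileup over local background, and the nearest deleted peaks were 3.29 and 3.31 kb away. Among the 5 genes whose sequences are shown above, the Dusp27 peak stood at 8.66 and 5.05, 25.4 and 25.5 kb from a deleted peak. The Cdkn1a peak stood at 5.97 and 6.81, with deleted peaks 2.40 and 2.48 kb away. Nat8 stood at 11.1 and 6.56, Nkx3-2 at 6.51 and 10.3 and Strn4 at 5.66 and 9.88, and these 3 had a deleted peak 118 to 375 bp away. Pml, the gene of the nuclear body protein, had a member at 7.75 and 6.37.

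Members near the ends of coding genes that ranked highest were again mostly close to a deleted peak. The members at Adipor1, Micall2, Mterf2 and Rhpn2 had a −log10 q of 5.02 to 8.84 in fl/fl F, met fl/fl M peaks of 764 to 1044 bp at 66.7 to 76.8, and had deleted peaks at most 216 bp away. At Loxl3, a lysyl oxidase gene, the member stood at 15.1 and 13.4 with deleted peaks 63 and 56 bp away, and at Wiz, a zinc-finger gene, at 8.17 and 23.9 with deleted peaks 61 bp away in both lists. The member at Socs2, a suppressor of cytokine signalling, stood at 13.5 and 16.1, with deleted peaks 424 and 478 bp away. Of the 10 members of best rank at coding gene ends, Tle2 alone had no deleted peak within 500 bp.

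Some long genes held several members. In all, 2014 genes held at least 1, 341 held 2 or more and 28 held 4 or more, while 17651 genes held a candidate. Macrod2, which encodes an ADP-ribose hydrolase (chr2:140395303-142392966), held 9 among 57 candidates (15.8%, 7.48 to 27.9). Pcdh15, a protocadherin gene of hair cells (chr10:73096277-74649831), held 8 among 30 (26.7%, 12.3 to 45.9), with folds from 2.86 to 3.33 in fl/fl F and 3.11 to 4.79 in fl/fl M. At the genome's share of each strength band the 2 genes would hold 3.55 and 2.79. These genes and the next ones named were picked for holding the most members. A count above the band shares was therefore favoured by the choice and supports nothing. Those 8 members of Pcdh15 were spread over 1502 kb, none of them within 1252 bp of a del/del F peak.

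A further 6 genes held 6 members each. They were Rbms3 (of 53 candidates), Pde4d (64), Nav3 (39), Tafa2 (26), Dpyd (29) and Plcb1 (32), with 1.15 to 4.01 at the genome's band shares. Tafa2 encodes a secreted protein of the TAFA family, Nav3 a neuron navigator, Pde4d a cAMP phosphodiesterase, Dpyd a pyrimidine-degrading enzyme and Plcb1 a phospholipase C. In Tafa2 and Plcb1 the nearest del/del F peak to any member was 515 bp and 6352 bp away, while in Rbms3, Pde4d and Dpyd it was 95, 67 and 87 bp. Among the 745 genes with 10 or more candidates, 279 held 0 members. The highest share, ranked after the values were seen, was in Stag1, which encodes a cohesin subunit (chr9:100597709-100958544), with 5 of 11 (45.5%, 16.7 to 76.6; 1.20 at the band shares). Its members had a −log10 q of 6.10 to 13.9 and none lay within 500 bp of a deleted peak. Elavl4, Grik1, Trhde and P3h2 followed with 3 of 10 each and Tmeff2 with 3 of 11.

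Members were counted in gene lists, each gene with 5 kb on either side, beside the 5.74% of all candidates. The lists were chosen with earlier results of these data known, so a count above the band shares supports nothing. The band shares allow for strength in fl/fl F but not for gene length. Members sat in longer genes than kept candidates (median 108 against 73.9 kb), and the part of gene length in the list counts was not tested. Neuron markers held 14 members among 96 candidates (14.6%, 8.21 to 23.3), against 7.56 at the genome's band shares. They lay in 6 of 15 genes, among them Syt1, the calcium sensor of synaptic vesicles, with 4 of 18, Elavl4, a neuronal RNA-binding protein gene, with 3 of 10, and Map2, a dendritic microtubule protein gene, with 2 of 16. Their best peaks stood at −log10 q of 12.1 and 14.7 in Syt1 (fl/fl F and fl/fl M), 12.7 and 14.7 in Elavl4, and 14.53 and 9.83 in Map2. All 3 lie inside the gene, 5.90 to 76.8 kb from the nearest gene end. Neuron marker genes had an end peak in both control lists in 12 of 15 cases.

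Guidance and adhesion genes held more candidates, with shares between those of the neuron markers and of all candidates. Axon guidance genes held 38 members of 438 candidates (8.68%, 6.21 to 11.7; 25.9 at the band shares) in 17 of 28 genes. In the netrin receptor gene Unc5c the best member stood at 12.1 and 18.5, in the Slit receptor gene Robo2 at 15.2 and 14.7, and in the semaphorin gene Sema3d at 13.9 and 14.7. Synapse adhesion and scaffold genes held 65 of 811 (8.01%, 6.24 to 10.1; 48.6) in 27 of 44 genes. Among them were Adgrb3, with 1 of 15, and Anks1b, with 2 of 39. Ion channels and neurotransmitter receptors held 30 of 440 (6.82%, 4.65 to 9.59; 27.6), among them the ryanodine receptor gene Ryr3 with 4 of 22, and the glutamate receptor gene Grm7, whose best peak at 13.0 and 16.8 had deleted peaks 138 and 118 bp away. Cacna2d3, a calcium channel subunit gene, held 1 of 12.

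The transcription factor and progenitor lists were near the background. NFI and neural transcription factor genes held 33 of 518 (6.37%, 4.42 to 8.83; 30.8 at the band shares), with 3 of 29 in Zbtb20, 2 of 25 in Foxp1 and 3 of 40 in Nfia. The peaks of best rank in Nfia and Foxp1 had a del/del F peak 148 and 55 bp away. Neural stem cell markers held 4 of 66 (6.06%, 1.68 to 14.8; 4.10), including 1 each at Sox2, Egfr and Olig2. The Sox2 member stood at 9.74 and 8.71, 1.59 kb beyond the gene, with deleted peaks 2.72 and 2.66 kb away. The Olig2 member stood at 8.02 and 6.51, 637 bp from the gene end, with deleted peaks 149 and 145 bp away.

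Markers of glia and of other cell types met few candidates, so their shares have wide intervals. Astrocyte markers held 5 of 50 (10%, 3.33 to 21.8; 3.11 at the band shares), with 1 each in the glutamate transporter genes Slc1a2 and Slc1a3 and the bicarbonate transporter gene Slc4a4. Oligodendrocyte markers held 3 of 42 (7.14%, 1.50 to 19.5; 3.12), 2 at Mobp and 1 at Cspg4. Microglia and blood markers held 1 of 20, at Ptprc (5%, 0.127 to 24.9; 0.929), and fibroblast markers 1 of 20, at Col1a1 (5%; 1.74). Endothelial markers held 0 of 34, which allows up to 8.82%, with 1.43 at the band shares. Imprinted and Hox genes, known as places of Smchd1 action, held 9 of 104 (8.65%, 4.03 to 15.8) against 8.87 at the band shares. Kcnq1, the potassium channel gene at the centre of an imprinted cluster (chr7:143106877-143427050), held 4 of 18, and its best member at 9.11 and 21.8 had deleted peaks 104 and 149 bp away. Usp29, in the imprinted Peg3 region, held 1 of 18 at 18.5 and 9.18, and a peak 440 bp from the end of Hoxb8 stood at 9.70 and 8.55. Olfactory and vomeronasal receptor genes, whose families are large and alike in sequence, held 6 of 126 (4.76%, 1.77 to 10.1), against 9.13 at the band shares. Single members lay at Olfr687, Olfr876 and Olfr378.

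Members gathered little along the genome. Within 10 kb of members, 268 of 4319 neighbouring candidates were members (6.21%), against 5.31% of the neighbours of kept candidates. Runs of members with no other candidate between them numbered 257 of 2, 22 of 3 and 1 of 4. At a share of 5.74% of candidates some runs arise without any grouping. Their number was not computed, so the runs are described only. The run of 4 lies around the non-coding gene Gm33680 on chromosome 12 and spans 78.9 kb. Runs of 3 lay within 2.42 kb in Tusc3, a gene of protein glycosylation (chr8:39130676-39133092), and within 2.96 kb in Ryr3 (chr2:112842990-112845946), with −log10 q of 9.20 to 15.8 and 6.59 to 15.8. Others lay in Vps8, a vacuolar sorting gene, over 3.84 kb, and at the predicted genes Gm34325 over 12.4 kb and Gm21358 over 15.4 kb.

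The share of members differed between chromosomes, and chromosome 7 had the lowest. There 173 of 4695 candidates were members (3.68%, 3.16 to 4.26), which is 0.672 times (0.577 to 0.778) the number at the genome's share of each strength band. Chromosomes 5 and 11 were at 0.815 (0.711 to 0.928) and 0.834 (0.726 to 0.952). Chromosome 16 had the highest ratio, 1.20 (1.03 to 1.37), with 187 of 2769 candidates, followed by chromosome 3 at 1.17 (1.05 to 1.30) and chromosome 9 at 1.15 (1.02 to 1.29). The other 13 intervals include 1. Both deleted lists moved the same way on chromosome 7, at 0.771 and 0.768 times for absence from del/del F and del/del M.

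Kept peaks differed between chromosomes too. On chromosome 7 the median log2 ratio of pileup in the deleted over the control list of the same sex was −0.25 in females and −0.22 in males, against −0.28 and −0.28 over all autosomes. Chromosome 7 also had the highest share in the reverse rule, 1.94% (80 peaks). That rule takes del/del F peaks of 5 or more that overlap a del/del M peak of 5 or more and no control peak. Over the 19 autosomes the members' ratio and the median pileup ratio had a Spearman correlation of −0.26 in females and −0.76 in males. Both measures come from the same 4 lists, and the part of the chromosome's pileup in the members' ratio was not tested.

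**Figure D4:**
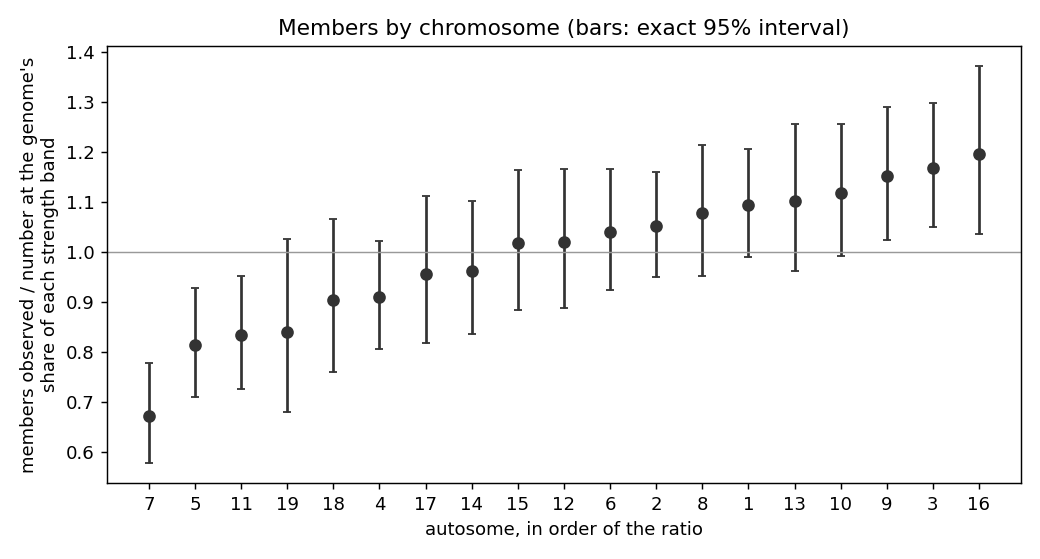
Members observed divided by the number at the genome's share of each strength band (y axis) for each autosome (x axis, ordered by the ratio), with exact 95% intervals as bars. Chromosome 7 is lowest at 0.672 and chromosome 16 highest at 1.20.

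The excess over the reverse rule depended on the length of the lists. As deposited, the reverse rule took 552 of 62597 candidates (0.882%, 0.810 to 0.958), against 4389 members. When each list was reduced to its 86015 strongest peaks, the length of the shortest, the rule gave 3900 (5.33%) and the reverse 1243 (1.99%). At 60210 peaks per list the counts were 2153 (4.004%) and 2013 (3.86%), and at 43007 they were 1441 (3.71%) and 1512 (3.997%). The last 2 lengths were chosen after the data were seen. At every reduced length a peak counted as absent can still be in the full list at a lower rank. At 86015 peaks this holds for each list but del/del M, which was not cut.

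**Figure D5:**
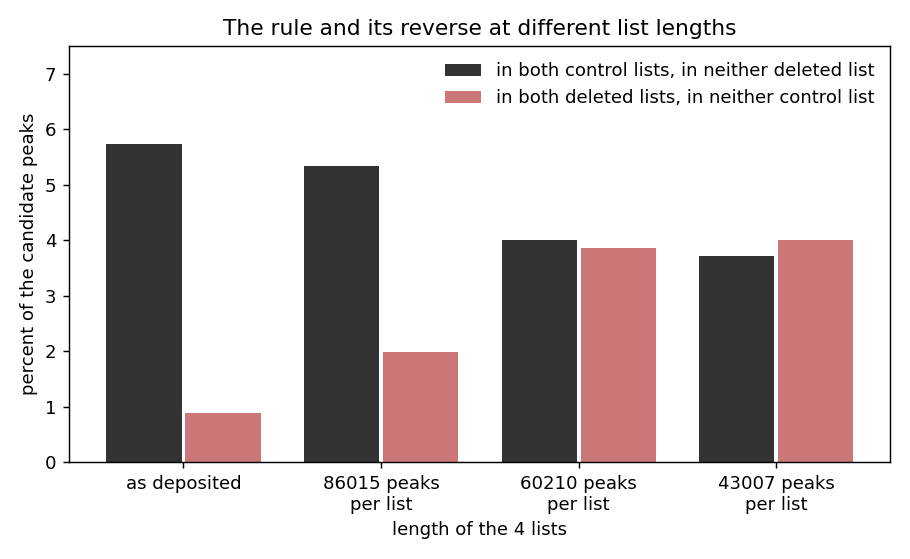
Percent of candidate peaks (y axis) in both control lists and neither deleted list, and in both deleted lists and neither control list, for the 4 lists as deposited and cut to 86015, 60210 and 43007 peaks each (x axis). The bars stand at 5.74% and 0.882% as deposited and at 3.71% and 3.997% at the shortest length.

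The threshold of 5 cuts through a continuous range. Just inside it were peaks near Racgap1, a cytokinesis gene (5.003 in fl/fl F), in Arfgef2 (5.011) and near Mir7652 (5.013). Just outside were peaks in Syt6 (4.999), near Gm46398 (4.989) and near Enpep (4.989). Of 2272 fl/fl F peaks under 5 that overlapped an fl/fl M peak of 5 or more, 910 (40.0%) met the rest of the rule.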

How the data were processed

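ATAC-seq was run on 10 libraries in 4 groups. The submitters' processing notes name the build mm10 and, with no role for any, MACS2, edgeR, Picard, SAMtools, Bowtie2 2.2.5, Trim Galore 0.4.0 and bcl2fastq. Peaks were called with MACS 2.1.0.20140616, per the file headers, at a q limit of 0.05 on a single pooled alignment for each group without a control, with tags shifted by 75 bp and extended to 150 bp. The deposited pileup is a signal height per peak, capped at 300. The deposited fold enrichment is the authors' ratio of a peak to local background, and the deposited −log10 q is the authors' own. These values served to order and select peaks within a list, and deeper lists give more reliable weak peaks.

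Members were found by overlap of at least 1 bp on chromosomes 1 to 19. The members and gene lists were chosen with earlier results of these data known. Kept candidates were weighted to the members' share in each band of fl/fl F −log10 q, with edges at 5, 7, 10, 15, 20 and 30. Positions came from 47038 autosomal genes in RefSeq's GRCm38.p6 table, which gives no strand, so both gene ends were used. Each peak took the name of a gene that ends within 1 kb, failing that the shortest gene around its summit, and failing that the nearest gene. A count of 0 allows 3 counts of the total.

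Named were the 15 members of best mean percentile rank in the control lists, up to 10 at coding gene ends, up to 8 genes with most members, 3 peaks on each side of the threshold and up to 3 genes per list. Some peaks that the rule takes are not reported here. Base composition and motifs around summits were planned but could not be computed, as no genome was used here, and promoter windows took their place. The 12 peaks with no deleted peak within 10 kb, the genes ranked by share, the choice of promoter sequences, the overlaps of the fl/fl M peaks, the comparison with length bands and the shorter list lengths were added after the data were seen. The overlap rule was tested on simulated data. Python 3.11.15, numpy 2.4.6, pandas 2.3.3, scipy 1.17.1 and matplotlib 3.10.9 were used.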

Additional observations from a re-analysis of the deposited data

How the results depend on the processing

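No paired analysis was possible because each group has 1 list called on its pooled libraries, and for the same reason no replicate could be left out. The 4389 members (5.74% of candidates) became 7763 (8.97%) at a −log10 q of 3 and 391 (0.741%) at 10. They became 7011 (9.16%) with absence from del/del F alone, 9926 (13.0%) with absence from del/del M alone, 2153 (4.004%) at 70% of the shortest list and 1441 (3.71%) at 50%. The share alone moved to 4.79% with no deleted peak within 500 bp, 5.33% at equal list lengths, 7.51% with a fold enrichment threshold of 2.54 and 6.76% with deleted lists of equal length. The share inside genes (51.1%) moved to 53.2% at 10, 52.6% for del/del F alone and 52.7% at 70%. The share at gene ends (9.43%) moved to 6.91% at 10, 7.78% with no deleted peak within 500 bp, 8.36% with the fold threshold, 10.8% for del/del M alone, 10.5% at 70% and 11.0% at 50%, and to 5.01% and 15.4% with windows of 500 bp and 2 kb. The median distance to a coding gene end (36.0 kb) moved to 43.3 kb at 10, 41.0 kb with the fold threshold, 30.6 kb for del/del F alone, 33.2 kb at 70% and 31.2 kb at 50%. The settings at 70% and 50% were chosen after the data were seen, and the cause of these moves was not tested. The other 39 of 62 planned values stayed within the interval or within 1.5 times. Of 61 named peaks, 22 were members in all 12 planned settings, 36 with no deleted peak within 500 bp and 31 at a −log10 q of 10. Several settings only loosen the rule, so no named peak could drop out there. They are a −log10 q of 3, absence from 1 deleted list alone, and deleted lists of equal length. Asking overlap with a deleted peak to cover 50% of the shorter peak is another. Counting each interval once repeated the main values, because no list held an interval more than once. With 1 list per group, depth and list length cannot be told apart from the deletion.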

Other observations

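The X chromosome lies outside the rule. With the same thresholds, 85 of 1960 X candidates (4.34%, exact 95% interval 3.48 to 5.33) had no peak in either deleted list, against 93.9 at the autosomal share of each strength band. The del/del F list lacked 112 of them (5.71%) and the del/del M list 355 (18.1%), whereas on the autosomes the shares were 9.16% and 13.0%. Depth and sex, and with sex the number of X chromosomes, differed between these lists, and their part in the shares was not tested.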
